A study of Chlamydomonas reinhardtii with 15 samples.

Results

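The transcript levels of sulfur-replete Chlamydomonas reinhardtii were compared between strains, using only the RNA taken at 0 h, before the cultures were moved to medium without sulfur. The green (Cy3) channel of every array labelled wt cc3491, 4aplus or npq4 was used, which gave 11 of the 15 arrays of the series, 4 for cc3491, 4 for 4aplus (written 4A+ here) and 3 for npq4. The arrays labelled cc125 were left out because it is not settled which of their channels holds the 0 h RNA. cc3491 and 4A+ are wild types, and npq4, made by insertional mutagenesis, is given by the methods as lacking the LHCSR3 isoforms, with 4A+ as its control strain. All cultures had grown in TAP, an acetate medium, to early stationary phase, and biological samples were pooled before labelling. Each array also carried, in red (Cy5), RNA of the same strain after 24, 48, 72 or 96 h without sulfur, with no 72 h array of npq4 analysed here, and the arrays are listed in that order. Strain and slide cannot be told apart, because the arrays of each strain lay on a slide of their own. The arrays of a strain carried 0 h RNA of the same strain from pooled cultures, so all p-values measure only the spread between hybridisations and not that between cultures.

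Chlamydomonas is a unicellular green alga that swims with a pair of flagella and lives by photosynthesis or on acetate. Its photosystems are fed by chlorophyll-binding antenna proteins, LHCA for photosystem I and LHCB and LHCBM for photosystem II, and the stress-related LHCSR proteins let the antenna release excess light energy as heat. Sulfate is taken up by transporters of the cell membrane, activated by ATP sulfurylase, reduced, and built into cysteine by O-acetylserine (thiol) lyase. These genes are known to respond strongly when sulfur runs short, and the 0 h culture is the state from which that response starts.

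Most transcript models were represented by 3 oligonucleotide probes. A difference between strains was called for a model here when at least 2 of its probes agreed, whether or not they overlap. The probes of a model can overlap, so 3 probes do not always read 3 separate stretches. This is shown for 2 models with large differences, 183357, which carried the names of phosphate symporters, and 195337, which has no annotation here, and for CHLM, the magnesium protoporphyrin IX methyltransferase of chlorophyll synthesis, whose probes share no such stretch. Sequences are from the probe table given with the study, 5′ to 3′, and capitals mark a stretch of at least 20 bases shared with another probe of the model.
183357 probe 1: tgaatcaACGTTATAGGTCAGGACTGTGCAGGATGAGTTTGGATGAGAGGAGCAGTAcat
183357 probe 2: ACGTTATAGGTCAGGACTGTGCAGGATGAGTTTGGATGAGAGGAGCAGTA
183357 probe 3: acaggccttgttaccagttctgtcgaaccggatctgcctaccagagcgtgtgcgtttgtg
195337 probe 1: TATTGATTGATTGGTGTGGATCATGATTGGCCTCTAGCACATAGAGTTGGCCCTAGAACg
195337 probe 2: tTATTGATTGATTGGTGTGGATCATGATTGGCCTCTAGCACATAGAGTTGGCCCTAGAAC
195337 probe 3: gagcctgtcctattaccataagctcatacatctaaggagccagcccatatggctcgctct
CHLM probe 1: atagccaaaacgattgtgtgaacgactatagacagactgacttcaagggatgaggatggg
CHLM probe 2: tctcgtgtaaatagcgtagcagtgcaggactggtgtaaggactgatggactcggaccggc
CHLM probe 3: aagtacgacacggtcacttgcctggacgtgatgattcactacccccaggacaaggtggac

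Probe 2 of 183357 lay wholly within probe 1, with 50 shared bases, and probes 1 and 2 of 195337 shared 59 bases. The overlapping probes gave nearly the same log2 levels, 14.64 and 14.47 in npq4 for 183357, and 15.46 and 15.54 in 4A+ for 195337. Probe 3, which reads another stretch, differed between the strains in the same direction. For 183357 it was at 7.42 in cc3491, 7.23 in 4A+ and 11.26 in npq4. For 195337 it was at 6.11, 7.54 and 6.07 in that order of strains, so the third probe of this model gave a much smaller difference than the overlapping pair. For CHLM all 3 separate probes were highest in cc3491, at 13.09, 11.30 and 8.52, and lowest in 4A+, at 8.80, 6.59 and 5.89, with npq4 at 10.04, 7.78 and 6.35. Probes also overlapped in FNR1 (44 shared bases), CRD1 (28) and 195549 (56), which are named below.

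Levels are log2 values of the green signal after background correction with an offset of 50 and quantile normalisation, which gives every array the same distribution of values. On this scale the 10301 probes that were well above background on none of the 11 arrays had a median of 5.89, so a level near 6 is a level of background. The test covered 24180 of 43687 probes and 11390 of 14557 models, taking every probe whose signal passed background on all arrays of at least 1 strain. The number well above background per array was 23604 to 27344 for cc3491, 18224 to 19606 for 4A+ and 16662 to 22167 for npq4. The median SD of a tested probe between arrays was 0.0572 in cc3491, 0.0866 in 4A+ and 0.144 in npq4, so the npq4 arrays varied most. Across the 24180 tested probes, which are not independent replicates, arrays of one strain had a Pearson correlation of 0.973 to 0.998, and arrays of different strains 0.861 to 0.940. The 10 spike-in control probes that were above background on all arrays differed between the strains, by a median of 1.47 for npq4 minus 4A+, 4.04 for npq4 minus cc3491 and 2.09 for 4A+ minus cc3491, and their order was the same for every one of them. What was added to the samples as spike-in is not given in the sources used here, and the part of these slide differences in the results was not tested. As genes that an algal culture should express, the antenna gene LHCBM7 had levels of 13.92 ± 0.07 (SD, n = 4), 14.09 ± 0.03 (SD, n = 4) and 15.11 ± 0.02 (SD, n = 3), and beta tubulin TUB2 had 14.44, 15.50 and 15.15, in cc3491, 4A+ and npq4.

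The transcript that the npq4 label says is lost was examined first. LHCSR3 was not well above background on any npq4 array for any of its 3 probes, whereas all 3 probes were above background on every cc3491 array. Probe 1 had levels of 8.56, 8.58, 8.78 and 8.48 in cc3491, of 7.94, 7.63, 7.73 and 8.08 in 4A+ and of 5.81, 5.83 and 5.95 in npq4. Every npq4 array lay below every array of the wild types. Probe 1 was at least 6.67-fold higher in cc3491 and at least 3.95-fold higher in 4A+ than in npq4, with Holm adjusted p of 1.16e-06 and 3.36e-05. Each bound sets the brighter strain against the dimmer strain's level on every array, raised where needed to the smallest level of any probe above background there. Probe 2 had means of 7.51, 6.33 and 5.80, and probe 3 had 6.25, 5.99 and 5.96, in cc3491, 4A+ and npq4. In 4A+ probe 3 was thus at background too, and only probe 1 separated npq4 from 4A+ by the test. As the mean of 3 probes LHCSR3 differed by -1.58 ± 0.08 (SE) for npq4 minus cc3491, which was called, and by -0.85 ± 0.08 for npq4 minus 4A+, which was not called because only 1 probe passed.

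Low signal in npq4 was not limited to the model named LHCSR3. In the order of loci of the RefSeq table (assembly version 5.5, chromosome 8), the models 150234, LHCSR3, LHCSR2, 184735 and OASTL1 follow each other, and all 5 were called lower in npq4 than in cc3491. This was the 1 run of at least 3 neighbours called the same way in that comparison. Model 184735, which has no annotation here, showed the largest difference of the run, with levels of 10.92, 10.95, 10.88 and 11.08 in cc3491, of 11.85, 11.80, 11.82 and 11.75 in 4A+ and of 6.01, 5.87 and 5.92 in npq4. The npq4 arrays were near background while both wild types were high. Its probe 2 was at least 82.6-fold higher in cc3491 and at least 176-fold higher in 4A+ than in npq4, with Holm adjusted p of 2.44e-11 and 4.4e-12, and its probe 1 was at least 48.3-fold and 90.9-fold higher, being above background on 1 of the 3 npq4 arrays.

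OASTL1, an O-acetylserine (thiol) lyase of cysteine synthesis, had levels of 8.88, 8.82, 8.88 and 8.87 in cc3491, of 8.81, 8.75, 8.76 and 8.82 in 4A+ and of 5.89, 5.92 and 5.89 in npq4. The wild types overlapped, no npq4 array came near them, and none of its 3 probes was above background on any npq4 array. The bounds of its probes over npq4 were 2.86-fold to 14-fold for cc3491 and 5.88-fold to 8.46-fold for 4A+. Both tested probes of 150234 were not above background on any npq4 array, and for probe 1 cc3491 exceeded npq4 by at least 8.26-fold. In 4A+ probe 1 of 150234 was at 6.64, against 8.91 in cc3491 and 5.85 in npq4, so the wild types differed at this model. The model named LHCSR2, also a stress-related antenna gene, had levels of 7.34, 7.55, 7.75 and 7.44 in cc3491, of 6.52, 6.38, 6.34 and 6.54 in 4A+ and of 6.20, 5.92 and 5.92 in npq4. As the mean of its probes LHCSR2 was highest on the cc3491 arrays, but npq4 minus 4A+ was only -0.43 ± 0.10 (SE), with 0 probes called and levels of both strains near background. Its probe 3 did not separate the strains, at 6.26, 6.34 and 6.14, and probes 1 and 3 were each above background on 1 npq4 array. On the near side of the run the probes of 150233 differed among themselves. Probe 3 was at 6.76 in cc3491, 6.40 in 4A+ and 5.85 in npq4, with no npq4 array above background, whereas probe 2 was at 6.13, 6.28 and 6.21, above background on 2 of the 3 npq4 arrays. On the far side, probe 1 of 16794 was above background on all 3 npq4 arrays, at 7.89 against 7.32 in cc3491 and 6.74 in 4A+.

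The run as a count of calls rested on LHCSR2, whose call for npq4 minus cc3491 (-1.51 ± 0.10, SE) was lost without any 1 of 10 of the 11 arrays and with the scanner software's processed signal. With an array left out the longest run was 0 to 5 models, being 5 only without the 24 h array of npq4. The arrays were also scaled to the 75th percentile or centred on the median. Of 4 stress antenna genes (LHCSR models and ELI3), each then gave 1 called lower in npq4 than in cc3491, against 2 before. The 5 models of the run thus did not all stay called. Each gave 0 called lower in 4A+ than in cc3491, against 1 (LHCSR2), and 1 lower in npq4 than in 4A+, against 0. The low signal of 184735 and OASTL1 in npq4 did not rest on the count of the run. In starved RNA on the same arrays, 184735 had red levels of 10.06, 9.76 and 6.14 and OASTL1 of 7.92, 7.82 and 5.92 in cc3491, 4A+ and npq4. LHCSR1, which lies apart from the run, was detected in npq4 by all 3 probes. Its levels were 8.57, 8.74, 9.09 and 8.70 in cc3491, 6.81, 7.33, 7.23 and 7.05 in 4A+ and 6.78, 7.27 and 7.92 in npq4. The 4A+ and npq4 arrays overlapped, and the difference of 0.22 ± 0.23 (SE) between them was not called and turned to -0.08 without the 96 h array of npq4. LHCSR2 and LHCSR3 are related genes, and signal shared between their probes cannot be told apart. The sources used here do not pair the isoform names LHCSR3.1 and LHCSR3.2 with models. The model named LHCSR2 could therefore be 1 of the isoforms that the methods give as lost in npq4.

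**Figure D1:**
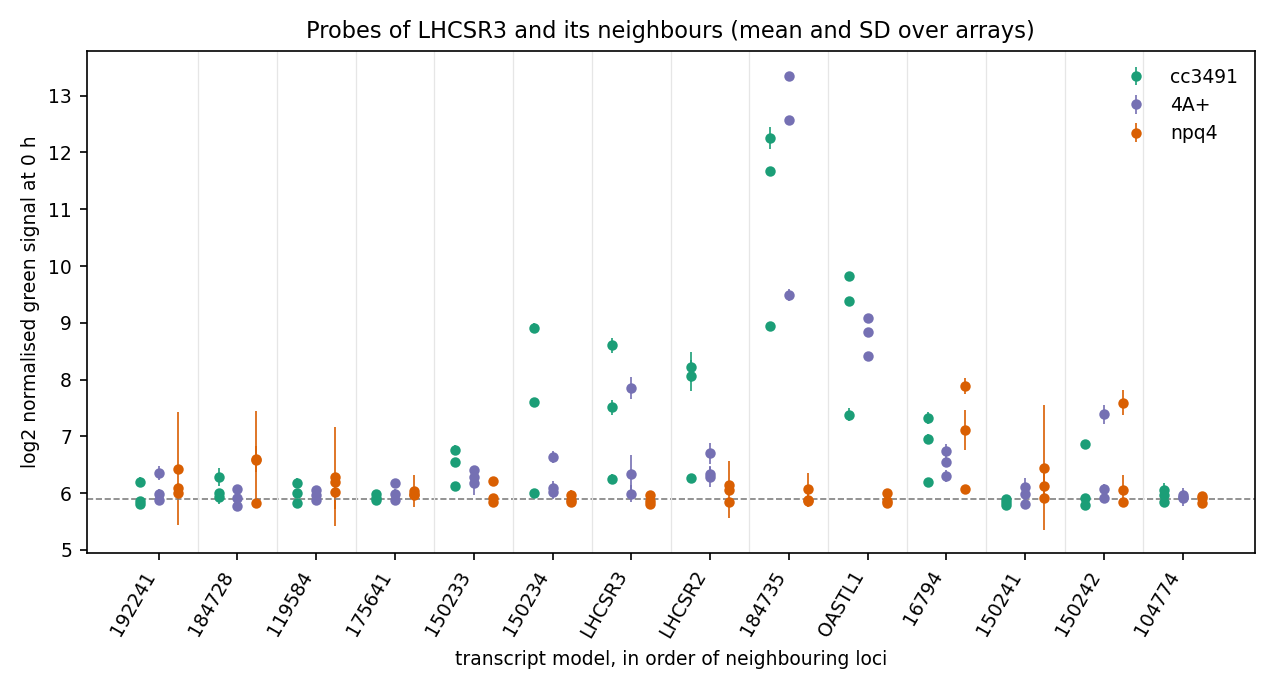
Log2 normalised green signal at 0 h (vertical axis) for each probe of LHCSR3 and of the models next to it in locus order (horizontal axis), as mean and SD over the arrays of cc3491 (n = 4), 4A+ (n = 4) and npq4 (n = 3), with a dashed line at 5.89, the median of probes above background on no array. From 150234 to OASTL1 the npq4 points lie near the line, at means of 5.80 to 6.14, while 184735 reaches 12.25 in cc3491 and 13.34 in 4A+.

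A probe was called different with a Holm adjusted p under 0.05, counted over every probe tested, and a difference of at least 2-fold, and a model was called when at least 2 of its probes were called the same way and none the other way. Between npq4 and its control 4A+, 3261 probes (13.5% of 24180, 7.03% higher and 6.45% lower in npq4) and 910 models (11.3% of 8076 with at least 2 tested probes) were called, of which 473 models (5.86%) were higher and 437 (5.41%) lower in npq4. Between npq4 and cc3491 it was 2648 probes (11%, 5.6% higher and 5.36% lower in npq4) and 648 models (8.02%), with 315 models (3.9%) higher and 333 (4.12%) lower in npq4. Between the wild types it was 5378 probes (22.2%, 10.6% higher and 11.7% lower in 4A+) and 1496 models (18.5%), with 660 models (8.17%) higher and 836 (10.4%) lower in 4A+ than in cc3491. The wild types gave more calls than either comparison of npq4. Without regard to p-values, 5863 probes differed by at least 2-fold between the wild types. It was 3798 between npq4 and 4A+ and 3181 between npq4 and cc3491. For npq4, 1 array fewer entered and the arrays varied more, while all strains shared the same estimate of the spread. Fitted on only the arrays of the 2 strains compared, 720 models were called between npq4 and 4A+ and 463 between npq4 and cc3491. Between the wild types it was then 1575. The part of the missing array in the counts was not tested. Model means that differed by at least 16-fold were 4 higher and 34 lower in npq4 against 4A+, 7 higher and 3 lower in npq4 against cc3491, and 36 higher and 15 lower in 4A+ against cc3491.

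How many calls went up or down varied with the scaling. With quantile normalisation 52.2%, 51.1% and 47.5% of the called probes were higher in the first strain, taking npq4 minus 4A+ first, then npq4 minus cc3491, then 4A+ minus cc3491. With each array scaled to its 75th percentile these shares were 35.1%, 85.9% and 87.8%, and with median centring 36.1%, 78.9% and 85.7%. The median difference of all models, which is -0.02, -0.06 and -0.02 under quantile normalisation, moved to -0.57, 0.87 and 1.49 with the 75th percentile and to -0.56, 0.75 and 1.35 with centring. Counts of called models moved to 885, 2338 and 4730 and to 879, 1776 and 4466. A difference given here is thus one relative to the rest of the transcriptome, and whether a strain held more or less RNA of a kind per cell cannot be told apart from it. None of the 135 differences of named models turned direction under another signal, background fit, offset or scaling or without a filter. Nor did the 120 that could be computed from probes detected on every array. The LHCSR models were not among the 135. Some calls were lost, and those lost under both other scalings are named beside their values.

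**Figure D2:**
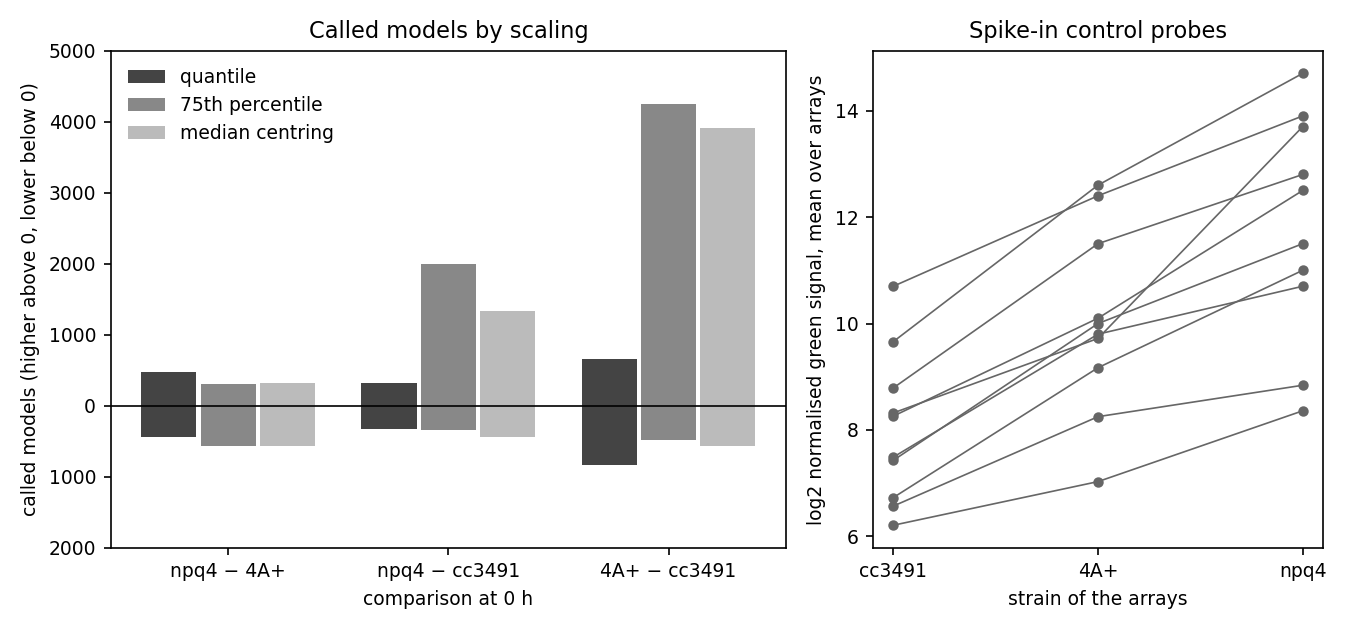
Left, the number of transcript models called higher (above 0) or lower (below 0) in the first strain of each comparison at 0 h, under quantile normalisation, 75th percentile scaling and median centring. Right, log2 normalised green signal of the 10 spike-in control probes as the mean over the arrays of each strain, with a line for each probe. The models called higher in 4A+ than in cc3491 number 660 with quantile normalisation and 4244 with the 75th percentile, and all 10 spike-in lines go upward from cc3491 to npq4.

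The largest differences between npq4 and 4A+ were mostly transcripts that were high in 4A+ alone. Model 182742 had levels of 12.94, 12.93, 12.95 and 12.98 in 4A+, of 6.50, 6.48, 6.46 and 6.43 in cc3491 and of 6.76, 6.25 and 6.21 in npq4. It was high on all 4A+ arrays and near background on all others, and differed by -6.54 ± 0.11 (SE) for npq4 minus 4A+ and by 6.48 ± 0.10 for 4A+ minus cc3491, with Holm adjusted p of 2.91e-11 and 1.38e-11 over all models. Model 205528 had 13.46, 13.47, 13.46 and 13.46 in 4A+, 7.48 to 7.53 in cc3491 and 7.53, 7.82 and 7.92 in npq4. The arrays of cc3491 and npq4 lay side by side far below those of 4A+, and the differences were -5.71 ± 0.08 and 5.96 ± 0.07. The same form was seen for 144348, with means of 15.59 in 4A+, 9.77 in cc3491 and 9.51 in npq4, and for 186159, with 14.79, 9.18 and 8.78. In both of these models 1 probe was saturated on every 4A+ array, so the differences are lower bounds, at least 67.5-fold and at least 64.4-fold above npq4. For 195337, whose overlapping probes are given with their sequences, the means were 12.85 in 4A+, 7.09 in cc3491 and 7.08 in npq4. Models 187064 and 193884 were at 12.49 and 11.70 in 4A+, at 6.49 and 6.03 in cc3491 and at 6.89 and 6.30 in npq4, and were among the 6 named for the largest differences in which 4A+ was higher than cc3491. None of these 7 models carries a name in the tables used here.

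Of the 6 models named for the largest differences in which npq4 was higher than 4A+, 5 were low in 4A+ alone, and 183357, with the largest, was high in npq4 alone. Model 195065 had levels of 9.17, 9.13, 9.12 and 9.15 in 4A+, of 14.19, 14.11, 14.22 and 14.20 in cc3491 and of 13.79, 13.78 and 13.83 in npq4. All 4A+ arrays were low and the other strains did not reach them, with differences of 4.65 ± 0.04 (SE) for npq4 minus 4A+ and -5.04 ± 0.04 for 4A+ minus cc3491. Model 131406 was at 7.89 in 4A+, 11.73 in cc3491 and 12.04 in npq4, 188105 at 7.47, 12.05 and 11.41, and 186463 at 8.66, 13.30 and 12.02. Model 24475 was at 5.95, 6.05, 6.01 and 7.44 in 4A+, at 10.81, 10.89, 10.90 and 11.01 in cc3491 and at 10.63, 10.64 and 10.77 in npq4. Its 96 h array of 4A+ stood above the other arrays of that strain but still below all others, and the call for npq4 minus 4A+ was lost with the scanner software's processed signal and with an offset of 0.

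High levels in npq4 alone were led by model 183357, which the study's tables name as a phosphate symporter under more than 1 symbol. It had levels of 13.44, 13.46 and 13.47 in npq4, of 8.39, 8.39, 8.32 and 8.53 in cc3491 and of 8.60, 8.54, 8.44 and 8.52 in 4A+. The wild types overlapped and npq4 was far above both, by 4.94 ± 0.06 (SE) over 4A+ and 5.05 ± 0.06 over cc3491, with Holm adjusted p of 5.14e-13 and 3.98e-13. Among the models that were highest in npq4 against cc3491, 4A+ often lay in between. Model 135609 had means of 7.05 in cc3491, 9.99 in 4A+ and 11.66 in npq4, and 205810 had 8.23, 9.76 and 12.44. For 146801 (8.42, 12.76 and 13.14), 205836 (8.42, 13.66 and 13.58) and 205848 (10.05, 13.71 and 14.63) 4A+ was nearer to npq4. The values of 205836 are the mean of 2 of its 3 tested probes, and the probe left out for a missing value differed by -1.93 for npq4 minus cc3491, against the direction of the others. One probe of 146801 was saturated on every npq4 array, which makes its difference a lower bound.

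High levels in cc3491 alone were led by model 194765, at 13.15, 13.15, 13.14 and 13.18 in cc3491, 6.04, 5.91, 5.96 and 6.72 in 4A+ and 6.09, 6.16 and 6.20 in npq4. All other arrays were near background, and cc3491 was at least 128-fold above npq4 and at least 127-fold above 4A+. Model 196797 showed the same form, with 10.16 to 10.25 in cc3491, 5.89 to 6.25 in 4A+ and 6.34 to 6.77 in npq4, and 190200 was at 15.36, 11.12 and 12.06, with a probe saturated on every cc3491 array. Model 20695 differed by -5.13 ± 0.43 (SE) for npq4 minus cc3491, but its arrays spread widely, from 12.62 to 14.27 in cc3491 and from 10.60 to 12.41 in 4A+, against 7.86 to 8.17 in npq4. Model 142796 was at 10.67, 8.52 and 7.35, and 185032 at 13.75, 9.18 and 10.98, in cc3491, 4A+ and npq4.

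**Figure D3:**
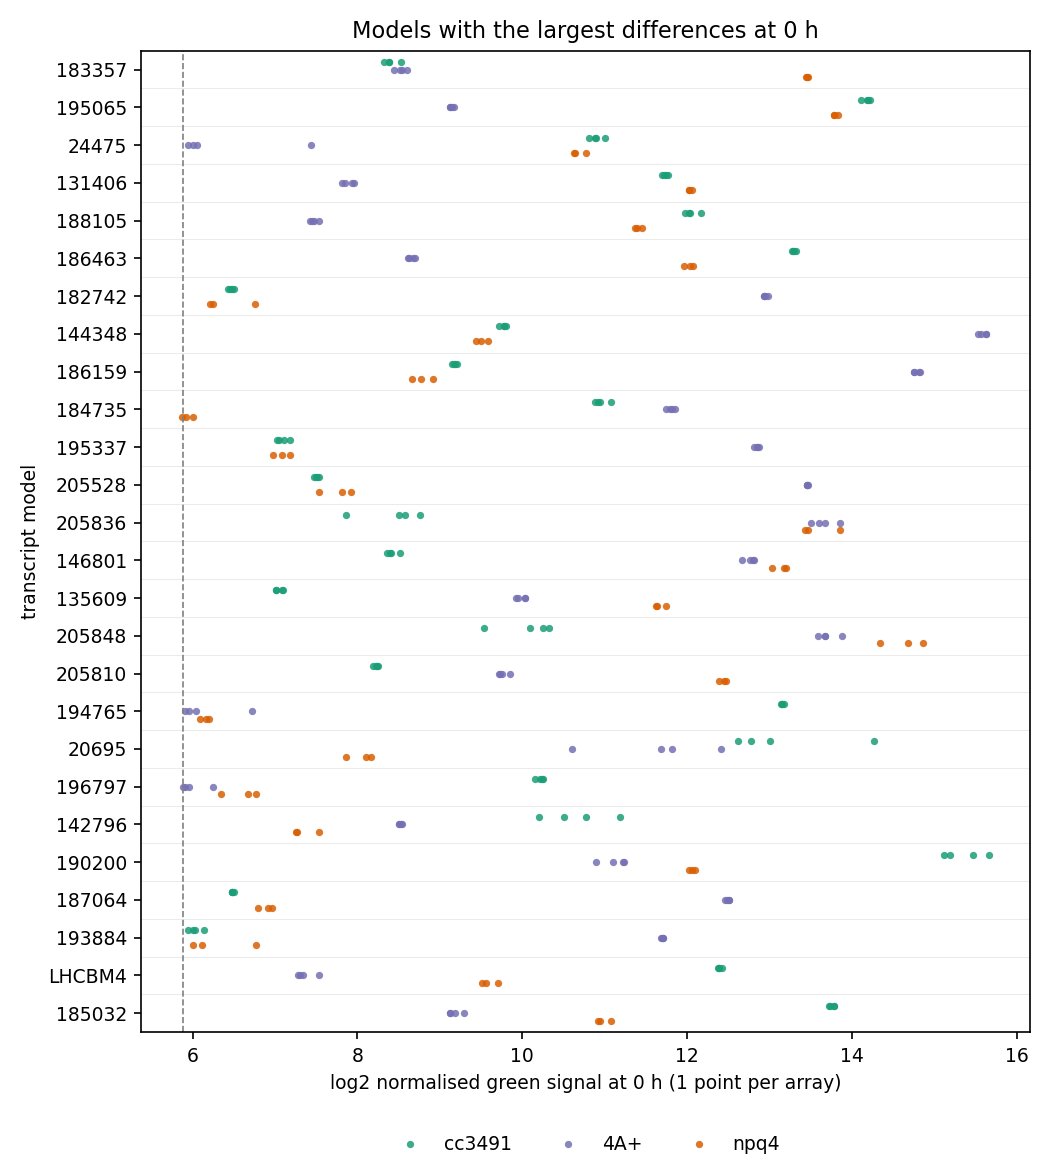
Log2 normalised green signal at 0 h (horizontal axis), 1 point per array, for the models with the largest differences in each of the 3 comparisons (vertical axis), in cc3491 (n = 4), 4A+ (n = 4) and npq4 (n = 3), with a dashed line at the background median of 5.89. From 182742 to 205528 the 4A+ points stand alone at the right, with 184735 as the exception at which only the npq4 points lie near background, and at 194765 the cc3491 points stand alone near 13.15.

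Gene groups were then examined, using symbols given in the study's tables of genes that responded to starvation. Those tables were drawn from cc3491 arrays that include the present ones, so the groups are not independent evidence of a direction, and most hold only a part of their pathway. Only the 378 symbols that pair with 1 model were used, and the lists count members with at least 1 tested probe.

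Some genes of the photosynthetic antenna and of chlorophyll synthesis were called lower in 4A+ than in cc3491, and none higher. Of 6 photosystem II antenna genes, 3 were called lower and 0 higher in 4A+, where 10.4% of all models were called lower and 8.17% higher, and the median was -1.15, against -0.02 over all models. LHCBM7 and LHCBM9 were not called, at 14.09 and 9.49 in 4A+ against 13.92 and 9.39 in cc3491, and 0 of 2 photosystem I antenna genes were called between the wild types. With the other scalings the median stayed negative, at -0.10 and -0.23, and was -1.59 relative to all models under each. Of the members 2 were called lower, where 486 and 560 of 8076 models were. The largest difference among them was that of LHCBM4, a major antenna protein of photosystem II, with levels of 12.38, 12.39, 12.39 and 12.43 in cc3491, of 7.34, 7.31, 7.28 and 7.53 in 4A+ and of 9.51, 9.56 and 9.71 in npq4. The strains did not overlap, with npq4 in the middle, and the differences were -5.03 ± 0.06 (SE) for 4A+ minus cc3491, 2.23 ± 0.07 for npq4 minus 4A+ and -2.80 ± 0.07 for npq4 minus cc3491. LHCBM8 was at 10.25, 8.74 and 9.78, and LHCB4, a minor antenna protein, at 12.19, 10.94 and 11.50, in cc3491, 4A+ and npq4. Both were called lower in 4A+, LHCB4 with a probe saturated on every cc3491 array and another that differed by 0.18, and the call of LHCB4 was lost under both other scalings, where it differed by -0.04 and -0.17. In npq4 against cc3491, LHCBM7 was higher by 1.19 ± 0.05 and the photosystem I antenna gene LHCA8 by 1.02 ± 0.04, and both calls were lost under both other scalings.

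Among 10 genes of photosystem subunits and electron transport, 2 were called lower and 1 higher in 4A+ than in cc3491 (10.4% and 8.17% of all models), and the median of -0.01 did not stand apart from all models. PSAH, a photosystem I subunit, had levels of 14.13, 14.15, 14.16 and 14.13 in cc3491, of 11.43, 11.46, 11.40 and 11.41 in 4A+ and of 12.48, 12.51 and 12.50 in npq4. Its arrays lay in 3 tight groups, and 4A+ differed from cc3491 by -2.72 ± 0.04 (SE). FNR1, the ferredoxin-NADP reductase, was at 13.74, 11.85 and 13.63 in cc3491, 4A+ and npq4, lower in 4A+ than in either other strain, with 1 probe saturated on every cc3491 array. Both FNR1 calls, and that of PSAH for npq4 minus 4A+ (1.07 ± 0.04), were lost under both other scalings. PSAL, another photosystem I subunit, went the other way, at 9.92 in cc3491, 11.39 in 4A+ and 10.98 in npq4, and its call for npq4 minus cc3491 (1.06 ± 0.06) was lost under both other scalings.

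Of 6 genes of tetrapyrrole synthesis, the pathway to chlorophyll and heme, 4 were called lower and 0 higher in 4A+ than in cc3491, with a median of -1.28, and 3 lower and 0 higher in npq4 than in cc3491, with a median of -1.22, where 10.4% and 4.12% of all models were called lower. CPX1, the coproporphyrinogen oxidase, was not called and lay higher in 4A+, at 11.34 against 10.51 in cc3491. With the other scalings the medians were -0.58 and -0.71 for 4A+, with 2 members called lower and 1 higher. For npq4 they were -0.81 and -0.92, with 3 members called lower. Relative to all models the medians were -2.06 for 4A+ and -1.67 for npq4 under each of these scalings. Of 8076 models, 486 and 560 were then called lower and 4244 and 3906 higher in 4A+, and 339 and 436 lower in npq4. CHLM had levels of 10.94, 10.98, 10.92 and 11.06 in cc3491, of 7.14, 7.10, 7.07 and 7.05 in 4A+ and of 7.90, 8.11 and 8.15 in npq4. It was far lower in both other strains, by at least 14.6-fold in 4A+ and by 7.56-fold in npq4. GSA, the glutamate semialdehyde aminotransferase at the start of the pathway, was at 11.39 ± 0.09, 8.76 ± 0.06 (SD, n = 4 each) and 9.02 ± 0.05 (SD, n = 3), and PBGD1, the porphobilinogen deaminase, was at 10.80, 9.53 and 8.87, in cc3491, 4A+ and npq4. CRD1, of the cyclase step and known for its response to copper, ran differently, with 8.68 in cc3491, 7.39 in 4A+ and 9.44 in npq4. It was higher in npq4 than in 4A+ by 2.05 ± 0.06 (SE). The calls of CRD1 and PBGD1 for 4A+ minus cc3491 were lost under both other scalings, as was that of CHLM for npq4 minus 4A+ (0.96 ± 0.06).

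A minority of the genes of sulfur uptake and assimilation were called, some with large differences between the strains. Of 17 tested members, 4 were called lower and 0 higher in npq4 than in 4A+, 4 lower and 0 higher in npq4 than in cc3491, and 3 lower and 3 higher in 4A+ than in cc3491. Over all models 5.41%, 4.12% and 10.4% were called lower in these comparisons, and 8.17% higher in the last. The list medians were 0.07, -0.21 and -0.18, with members on both sides of 0. With the 75th percentile they were -0.51, 0.06 and 0.74, and with centring -0.50, -0.06 and 0.61. Relative to all models they were 0.06, -0.81 and -0.74 under each of these scalings, against 0.10, -0.15 and -0.16 with quantile normalisation. CDO1, a cysteine dioxygenase that oxidises cysteine, had levels of 9.66, 9.66, 9.73 and 9.85 in cc3491, of 12.21, 12.27, 12.29 and 12.33 in 4A+ and of 7.80, 7.70 and 7.87 in npq4. The strains did not overlap, with 4A+ highest and npq4 lowest, and npq4 minus 4A+ was -4.48 ± 0.06 (SE). ATS2, an ATP sulfurylase, had 8.42, 8.54, 9.16 and 9.20 in cc3491, 12.16, 12.11, 12.16 and 12.18 in 4A+ and 8.54, 8.70 and 8.82 in npq4. It was high in 4A+ alone, at 11.1-fold the npq4 level and 10-fold the cc3491 level, while the arrays of cc3491 spread more than those of the other strains.

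Of the sodium/sulfate cotransporter genes, SLT1 and SLT2 showed another order. SLT3 did not share it, at 8.79 in cc3491, 9.30 in 4A+ and 8.58 in npq4. SLT1 had levels of 10.21, 10.23, 10.17 and 10.29 in cc3491, of 7.47, 7.18, 7.08 and 7.04 in 4A+ and of 7.57, 7.96 and 7.65 in npq4. It was high in cc3491 alone, and differed by -3.03 ± 0.10 (SE) for 4A+ minus cc3491 and by -2.50 ± 0.11 for npq4 minus cc3491. SLT2 was at 8.23 in cc3491, 6.77 in 4A+ and 6.96 in npq4, and both of its calls were lost under both other scalings. ARS5, an arylsulfatase-like gene, differed by -0.96 ± 0.04 for npq4 minus 4A+ with means of 8.84, 9.67 and 8.71 in the order cc3491, 4A+, npq4. Arylsulfatase ARS1, a classic marker of sulfur starvation, was low in all strains at 0 h, with 7.59, 7.28 and 6.47 and no call. With OASTL1, which had no signal above background in npq4, CDO1, ATS2 and ARS5 made up the 4 members called lower in npq4 than in 4A+. After starvation the same arrays showed ATS2 at red levels of 12.30, 12.75 and 12.09 and SLT1 at 12.87, 12.07 and 12.64, so that strains that were far apart at 0 h lay closer together.

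Transporters of phosphate and enzymes of purine use gave single large differences. Of 2 listed genes of phosphate uptake and regulation PTB2 was called and PHO1 was not. PTB2, a sodium/phosphate symporter, had levels of 11.30, 11.31, 11.29 and 11.19 in cc3491, of 8.71, 8.74, 8.63 and 8.70 in 4A+ and of 11.66, 11.72 and 11.74 in npq4. It was low in 4A+ alone, by -2.58 ± 0.04 (SE) against cc3491 and with 3.01 ± 0.05 for npq4 minus 4A+. Model 196465, its neighbour on chromosome 7, which also carries phosphate symporter names, was at 9.52 in cc3491, 6.32 in 4A+ and 6.91 in npq4, so npq4 lay with 4A+ for this gene and with cc3491 for PTB2. Of 15 genes of nitrogen uptake and assimilation 11 were tested, and 1 was called lower in npq4 than in 4A+, 1 higher and 1 lower in npq4 than in cc3491, and 0 between the wild types. Of all models 5.41% were called lower in npq4 than in 4A+, and 3.9% higher and 4.12% lower in npq4 than in cc3491. Between the wild types 18.5% were called. The other scalings each called 4 members higher in 4A+ than in cc3491, where 4244 and 3906 of 8076 models were called higher. Relative to all models the list median was -0.33 under each. UOX, urate oxidase, was at 11.32, 11.35, 11.35 and 11.28 in cc3491, 10.95, 10.93, 11.00 and 10.89 in 4A+ and 9.57, 9.70 and 9.94 in npq4. It was lowest on every npq4 array, by -1.20 ± 0.07 against 4A+ and -1.59 ± 0.07 against cc3491. UAPA1, a permease for uric acid and xanthine, was at 13.73 in cc3491, 15.27 in 4A+ and 14.84 in npq4, with a probe saturated on every npq4 array.

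Genes of hydrogen production, fermentation and the copper response were higher in npq4 where they were called in its comparisons, but not all members lay higher. By the mean, 6 were higher and 4 lower in npq4 than in 4A+, and 7 higher and 3 lower than in cc3491. CYC6, which was not called in npq4, lay lower there, at 7.05 against 8.89 in cc3491 and 9.29 in 4A+. Of 10 members, 2 were called higher in npq4 than in 4A+ and 3 higher than in cc3491, with 0 lower in both. Of all models 5.86% and 3.9% were called higher. The medians of 0.05 and 0.55 moved to -0.50 and 1.16 with the 75th percentile, which relative to all models were 0.08 and 0.29. HYDA2, an iron hydrogenase, had levels of 7.25, 7.20, 7.24 and 7.25 in cc3491, of 7.58, 7.11, 6.84 and 7.09 in 4A+ and of 8.68, 8.71 and 8.71 in npq4. The wild types overlapped and every npq4 array was higher, although the call against 4A+ (1.55 ± 0.13, SE) was lost under both other scalings. HYDA1, the other iron hydrogenase, was at 10.15, 10.97 and 11.00 in cc3491, 4A+ and npq4, and ADH1, the alcohol and acetaldehyde dehydrogenase of fermentation, at 8.81, 9.55 and 10.46. CTR2, a copper transporter, was higher in 4A+ than in cc3491 by 2.02 ± 0.06, with npq4 between them at 9.04 to 9.36. Its probes differed by 0.85 to 4.13 between the wild types. Of 5 genes of iron and zinc nutrition and oxidative defence, only ZRT5 was called. ZRT5, a zinc transporter, was low in 4A+ alone, at 6.91 against 8.19 in cc3491 and 8.23 in npq4. Of all models 10.4% were called lower in 4A+ than in cc3491.

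Flagellar genes and tubulins were called in both directions. The counts are small, 31 members had the 2 tested probes that a call needs, and a difference from the shares of all models was not tested. Of 34 tested members, 4 were called higher and 1 lower in npq4 than in 4A+, 6 higher and 2 lower in npq4 than in cc3491, and 8 higher and 4 lower in 4A+ than in cc3491. Of all models 5.86% were called higher and 5.41% lower in the first comparison, 3.9% and 4.12% in the second and 8.17% and 10.4% in the third. The medians of 0.24, 0.20 and 0.04 moved to -0.30, 0.68 and 1.33 with the 75th percentile and to -0.29, 0.57 and 1.20 with centring, close to the shift of all models. FMG1-B, the major glycoprotein of the flagellar membrane, had levels of 10.03, 10.07, 10.02 and 10.04 in cc3491, of 9.78, 9.77, 9.75 and 9.76 in 4A+ and of 12.15, 12.24 and 12.33 in npq4. It was high in npq4 alone, by 2.47 ± 0.05 (SE) over 4A+ and 2.20 ± 0.05 over cc3491. FAK2, a flagellar adenylate kinase, was high in 4A+ alone, at 12.48 against 9.96 in cc3491 and 9.84 in npq4. TUA1, an alpha tubulin, was at 12.03, 9.84 and 10.92 in cc3491, 4A+ and npq4. The flagellar associated proteins FAP285 (9.32, 10.60 and 11.40), FAP203 (9.60, 10.99 and 11.33) and FAP1 (8.34, 9.40 and 9.89) were called higher in npq4 than in cc3491, with 4A+ between. FAP151 (8.91, 6.96 and 8.23) and FAP275 (8.39, 6.56 and 7.47) were called lower in 4A+ than in cc3491, the former not under the other scalings and with 1 probe that differed by 0.40.

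A few genes of the cell surface, the sexual cycle and the organelles also differed between 4A+ and the other strains. In 4A+ against cc3491, 1 of 5 sexual cycle genes was called higher, and of 6 cell wall genes 1 higher and 1 lower. Of 10 chaperones 1 was called higher, and of 10 translation factors and ribosomal proteins 2 lower. The other members were not called, and over all models 8.17% were called higher and 10.4% lower. ZYS3-1, known as a zygote-specific gene, had levels of 7.95, 7.94, 7.81 and 7.93 in cc3491, of 12.69, 12.72, 12.65 and 12.67 in 4A+ and of 6.70, 7.25 and 7.33 in npq4. VSP3, of the extracellular matrix, had 8.02, 8.02, 8.02 and 8.08 in cc3491, 12.10, 12.11, 12.10 and 12.06 in 4A+ and 8.08, 8.31 and 8.45 in npq4. Both were high in 4A+ alone, ZYS3-1 by 48.1-fold over npq4 and 27.4-fold over cc3491, and VSP3 by 14-fold and 16.6-fold. PRPL29, a plastid ribosomal protein, ran the other way, with 12.33, 12.29, 12.36 and 12.33 in cc3491, 8.24, 8.17, 8.04 and 8.22 in 4A+ and 10.31, 10.34 and 10.43 in npq4. The strains did not overlap, and 4A+ minus cc3491 was -4.16 ± 0.05 (SE). PRPL31, another plastid ribosomal protein, was called lower in 4A+ than in cc3491 with quantile normalisation but not under the other scalings, and the pherophorin PHC17 (8.54, 6.23 and 7.28) was lower in 4A+ than in cc3491 by -2.31 ± 0.08. MGE1, the mitochondrial GrpE co-chaperone, was at 12.61, 14.89 and 12.71, but its probes differed between the wild types by as little as 0.63 and as much as 5.03.

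Histones and genes of inorganic carbon concentration gave few calls. Of all models 11.3% were called between npq4 and 4A+, 8.02% between npq4 and cc3491 and 18.5% between the wild types. Of 55 histone models, which have near-identical copies whose signals cannot be told apart, 0 were called between npq4 and 4A+ by limma, and 1 was called higher in npq4 than in cc3491 and 1 higher in 4A+ than in cc3491. That model was HFO36, a histone H4, with means of 7.83, 8.78 and 8.49 in cc3491, 4A+ and npq4, and with 1 probe at -0.41 for npq4 minus cc3491, against the other probes. In npq4 against 4A+ the mean of 50 of the 55 models was lower, with a median of -0.75 against -0.02 over all models, and relative to all models the median was -0.30 with the 75th percentile and with centring. The other scalings called 13 and 5 histones higher in npq4 than in cc3491, and 18 and 11 higher in 4A+ than in cc3491. Of 8076 models with at least 2 tested probes, they called 1999 and 1340, and 4244 and 3906, higher in these comparisons. Relative to all models the histone medians were -0.65 and -0.70 in these comparisons under each of these scalings. Of 11 genes of carbon concentration, 0 were called in any of the 3 comparisons, with medians of -0.23, -0.43 and -0.05. With the 75th percentile 2 of them were called lower in npq4 than in 4A+, 1 higher in npq4 than in cc3491 and 3 higher in 4A+ than in cc3491. Over all models these counts were 573, 1999 and 4244.

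**Figure D4:**
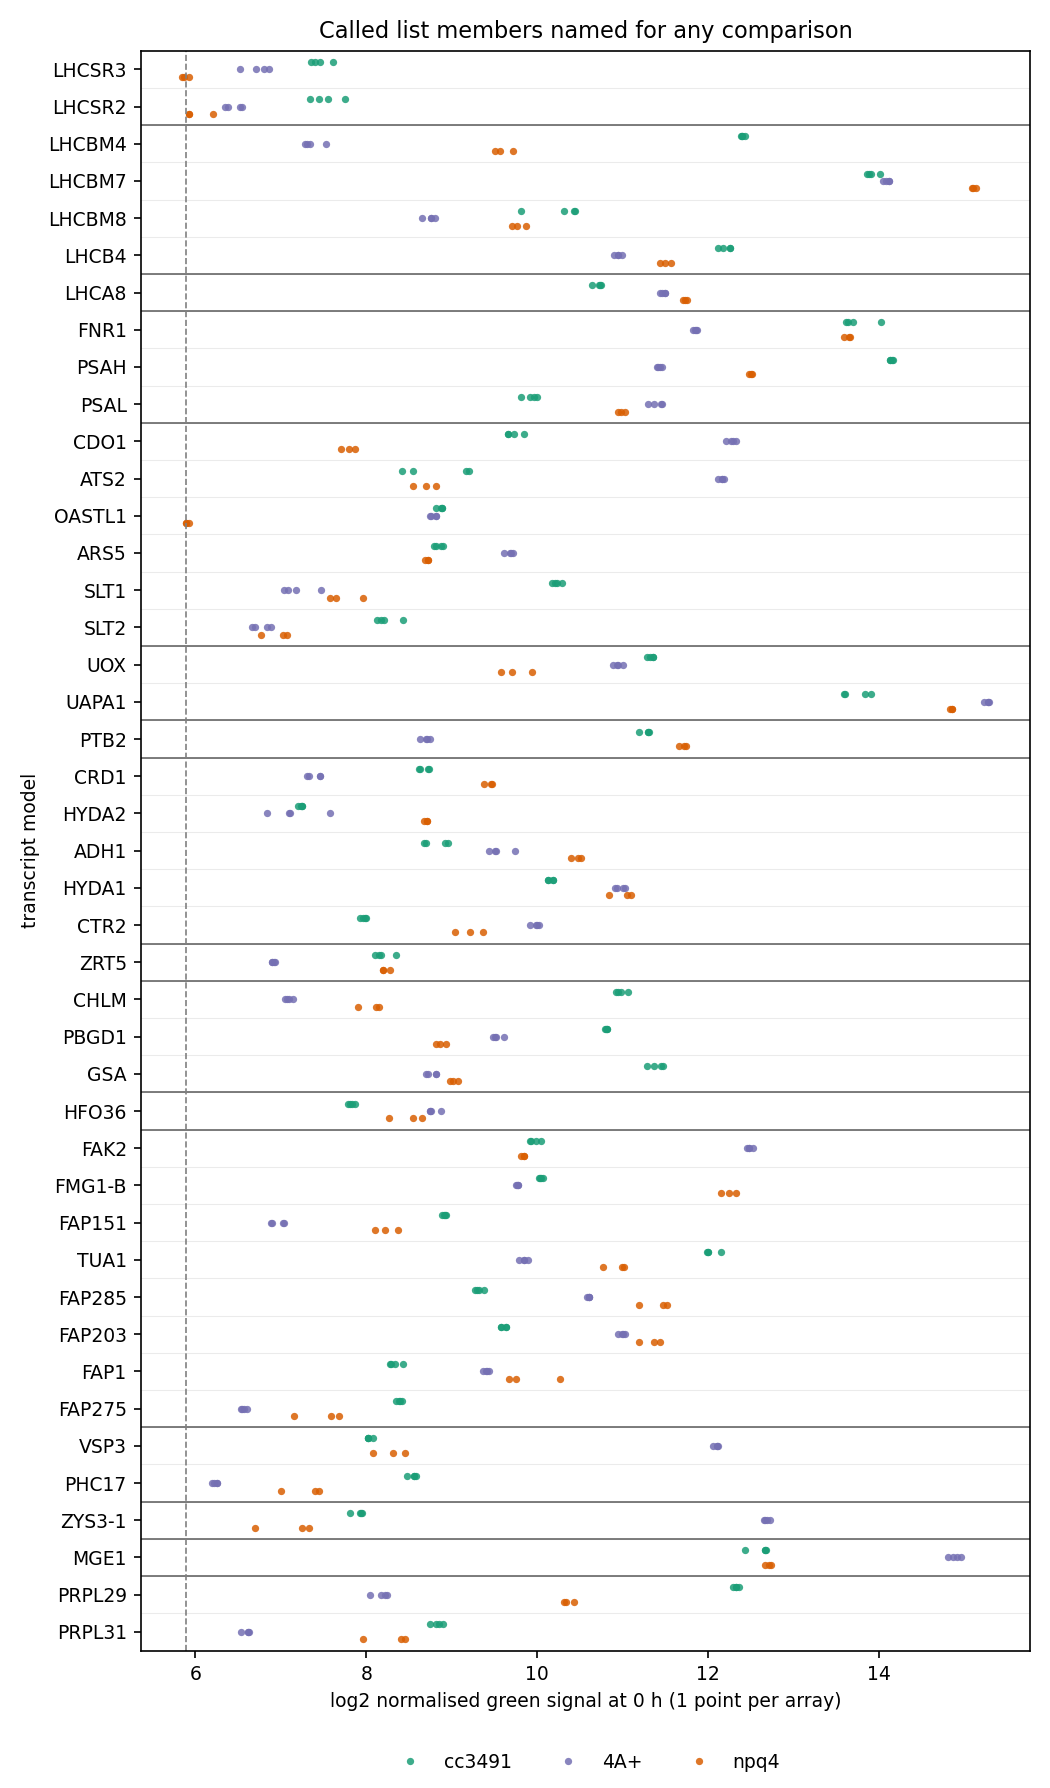
Log2 normalised green signal at 0 h (horizontal axis), 1 point per array, for the called members named from each gene list (vertical axis, lists divided by lines), in cc3491 (n = 4), 4A+ (n = 4) and npq4 (n = 3). The points of each strain lie close together for most genes, and CDO1, ATS2, VSP3 and ZYS3-1 reach 12.09 to 12.68 in 4A+ while cc3491 and npq4 lie lower.

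The place of npq4 was described for the models called between the wild types. Of the 660 models called higher in 4A+ than in cc3491, npq4 was between the wild types in 443 (67.1%), at a median of 32.6% of the way from cc3491 to 4A+. Of the 836 called lower in 4A+, it was between in 685 (81.9%), at a median of 47.8%. These shares are descriptions, since the models were chosen for the difference that forms the scale. Such a choice by itself favours a place in between, and no share over all models stands beside them.

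Some models called between the wild types lay next to each other in locus order. Among 9551 models with a locus and a value, 8 runs of at least 3 neighbours were called the same way in 4A+ against cc3491, and 0 in npq4 against 4A+. With 8.17% of models called higher and 10.4% lower in 4A+, such runs also arise in a random order. Whether 8 runs are more than that was not tested. The longest was a run of 4 models on chromosome 12, higher in 4A+, in which 206233 had levels of 6.45, 6.46, 6.50 and 6.48 in cc3491, of 9.43, 9.41, 9.37 and 9.39 in 4A+ and of 6.47, 6.54 and 6.44 in npq4. Here npq4 lay with cc3491. Its neighbours 156500 and 169640 were likewise near background in cc3491, at 6.05 to 6.09 and 5.98 to 6.01, and at 8.21 and 6.99 in 4A+ and 6.44 and 6.30 in npq4, whereas 195549, the last of the run, was at 8.62, 12.44 and 11.62. On chromosome 2 the neighbours 182011, 186531 and ZEP1 were lower in 4A+, with 186531 at 13.59 in cc3491, 9.72 in 4A+ and 10.34 in npq4. ZEP1, the zeaxanthin epoxidase of the carotenoid cycle that acts with energy quenching, was at 10.48, 10.53, 10.55 and 10.61 in cc3491, 9.33, 9.35, 9.34 and 9.38 in 4A+ and 9.40, 9.45 and 9.26 in npq4. The arrays of 4A+ and npq4 overlapped and both lay below cc3491. The probes of ZEP1 differed by -2.18 to -0.17 for 4A+ minus cc3491. A second run on chromosome 2, of 133650, 97057 and 133859, was higher in 4A+, with 133859 at 11.81, 14.65 and 13.90. On chromosome 7 PTB2 lay in a run with 196465 and 194929, and on chromosome 16 model 24475 in a run with 194461 and 194458. The probes of 194461 differed by -2.68 to 0.62, so not all went the way of its call, and the mean of 194458 rests on 1 probe. The remaining 3 runs, on chromosomes 5 and 16, held differences from -2.32 to 1.77. Among them a probe of 159323 differed by -0.35, against the call of its model. In 4 of the 8 runs a call was lost under at least 1 other scaling, those of 182011, 196717, 154129 and 194929 under both and that of 133650 under centring.

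Signal above background in one strain and in none of another's arrays was counted over all 43687 probes. In cc3491 4128 probes (9.45%) were above background on every array and in 4A+ on none, while the reverse held for 478 (1.09%). Against npq4, 2647 probes (6.06%) were above background in cc3491 alone and 269 (0.616%) in npq4 alone. Between 4A+ and npq4 it was 672 (1.54%) in 4A+ alone and 981 (2.25%) in npq4 alone. cc3491 also had the most probes above background per array, and the part of this in the counts was not tested. The median level of the 4128 probes was 6.23, just above that of undetected probes. Models with all 3 probes in such a count were 129 and 10 for cc3491 and 4A+, 36 and 3 for cc3491 and npq4, and 12 and 13 for 4A+ and npq4.

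Models called at 0 h, which were chosen for a large difference there, had smaller median differences in the starved RNA of the red channel. Of the models called at 0 h, the red channel had the same direction for 79.7% of 473 higher and 58.8% of 437 lower in npq4 against 4A+, where 66.1% of all models did. Against cc3491 it was 81.3% of 315 and 83.5% of 333 for npq4, with 74.8% of all models, and 73.2% of 660 and 89.2% of 836 for 4A+, with 70.8% of all models. The median difference of the models lower in npq4 than in 4A+ was -1.55 at 0 h and -0.09 after starvation, and that of the models higher was 1.35 and 0.47. Fewer probes were above background per array in the red channel of 4A+, 8715 to 12423, than in that of cc3491, 20955 to 26293, or of npq4, 14329 to 19471, and the part of this in the red differences was not tested. Model 183357, at 13.46 in npq4 at 0 h, was at a red level of 8.25 in npq4, 7.24 in cc3491 and 6.83 in 4A+, and 182742 was at 6.49, 6.38 and 8.27. For 184735 the red difference stayed large, at -3.62 for npq4 minus 4A+ and -3.92 for npq4 minus cc3491, and for 20695 it was -5.97 for npq4 minus cc3491. Some differences were larger in starved RNA, as for npq4 minus cc3491 in LHCSR3, with -3.44 against -1.58 at 0 h, and LHCSR2, with -2.73 against -1.51, and for npq4 minus 4A+ in PSAH, with 2.42 against 1.07. Both channels lie on the same slide, so strain and slide cannot be told apart in either, and the models were chosen at 0 h.

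**Figure D5:**
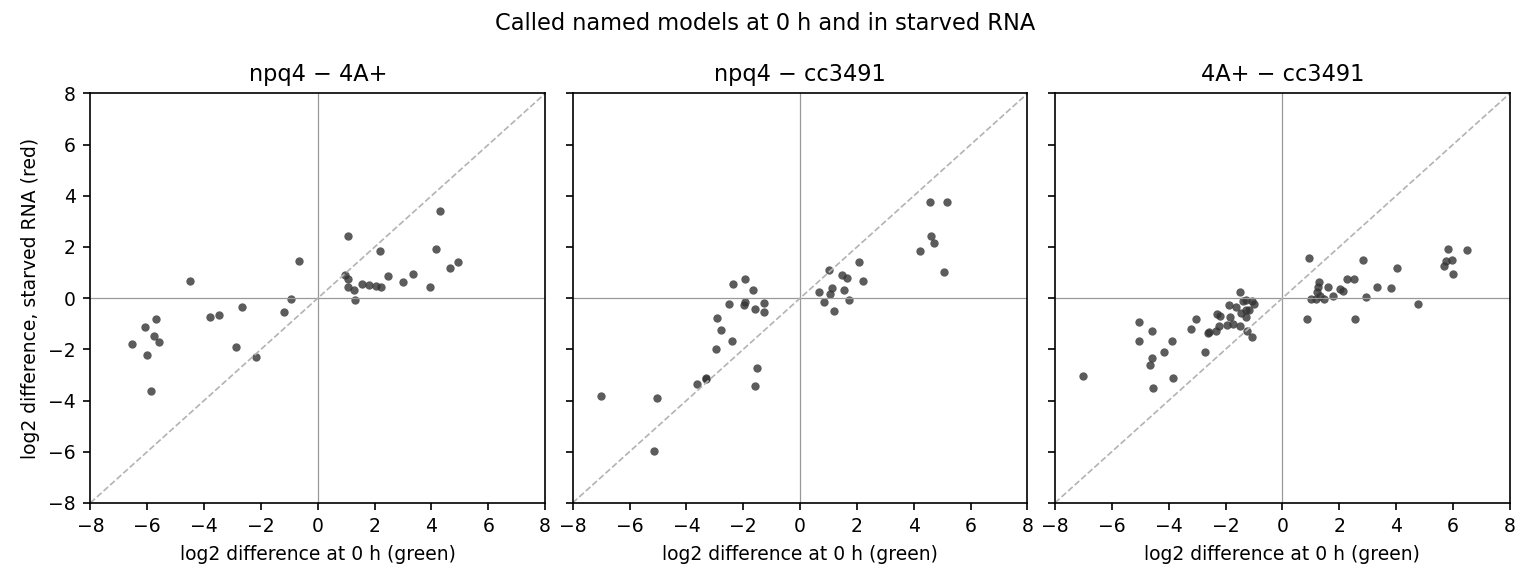
Difference between strains in starved RNA (vertical axis, log2, red channel) against the difference at 0 h (horizontal axis, log2, green channel) for the called named models, 1 panel per comparison, 1 point per model, with a dashed line where both are equal. Most points lie nearer to 0 on the vertical axis than on the horizontal axis, as for 183357, with 1.42 against 4.94 for npq4 minus 4A+.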

How the data were processed

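The deposited files are Agilent scanner outputs of 2-colour arrays with Cy3 (0 h) and Cy5 (starved) labels, and per the labels the authors extracted the spot intensity values with Agilent Feature Extraction 10.7.3.1. From the green median spot intensity and its local background, normexp correction (offset 50, fitted only on unmarked spots with net signal over -100) and quantile normalisation over the 11 arrays were run in R 4.3.3 with limma 3.58.1. Strains were compared with limma's moderated test over 24180 probes, with Holm adjustment below 0.05, a 2-fold limit and at least 2 called probes per model. All strains shared the same estimate of the spread per probe. Model differences and their SE are from a limma fit of probe means, which left out 148 probes with a missing value, and Holm p-values printed for models are over all tested models. Red signals were processed in the same way. Named were the 6 called models with the largest differences each way per comparison whose arrays did not overlap, the LHCSR models, up to 4 called members of each list, and runs of at least 3 neighbouring called models. Locus order came from RefSeq (assembly version 5.5, 12302 models matched), whose coordinates were not used. Symbols that pair with several models were replaced by model numbers (110 models). Members and lists were chosen with earlier results of these data known. The procedure was tested on simulated data. Alternatives were another signal, background fit, offset, scaling, probe filter, adjustment, fold limit and set of arrays. Figures were drawn with Python 3.11.15 and matplotlib 3.10.9.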

Additional observations from a re-analysis of the deposited data

Results flagged for a closer look

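Single arrays stood apart from the other 3 of their strain in 10 of 186 groups of 4 arrays of named models, which is close to the share of about 1 in 20 that chance gives. The 96 h array of 4A+ was at 7.44 for model 24475, where the others were at 5.95 to 6.05, at 6.72 for 194765, against 5.91 to 6.04, and at 8.87 for HFO36, against 8.74 to 8.76. The first 2 of these are probes near background on the other arrays of 4A+. The 96 h array of cc3491 was at 11.19 for PTB2, against 11.29 to 11.31, at 12.15 for TUA1, with the lowest of the others at 11.99 and the rest just above it, at 8.08 for VSP3, where all others were at 8.02, and at 12.43 for MGE1, against 12.66 to 12.68. The 72 h array of cc3491 was at 8.47 for PHC17, against 8.56 to 8.58, and at 7.81 for ZYS3-1, against 7.93 to 7.95. The 48 h array of cc3491 was at 8.82 for OASTL1, against 8.87 to 8.88. Apart from 24475 and 194765, these gaps were small beside the differences between strains. The npq4 arrays, 3 in number, were not examined in this way, and the 24 h array of npq4 had 224 spots with an outlier mark, against 1 to 42 on the others.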

How the results depend on the processing

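The scaling and the fold limit changed the counts by more than 1.5 times, the scaling only in the comparisons with cc3491. With the 75th percentile the called probes were 9741 for npq4 minus cc3491 and 16755 for 4A+ minus cc3491 (models 2338 and 4730), and with median centring 7795 and 16142 (models 1776 and 4466). Of the 648 and 1496 models called with quantile normalisation, 545 and 1132 were kept with the 75th percentile. A 4-fold limit left 945, 523 and 1803 probes and 278, 118 and 489 models in the order npq4 minus 4A+, then npq4 minus cc3491, then 4A+ minus cc3491. With an array left out, the probes numbered 2993 to 3432, 2388 to 2754 and 4923 to 5630, and the models 831 to 981, 587 to 668 and 1364 to 1565. The arrays share only a time label, with correlations of their deviations from -0.09 to 0.09 over 10 pairs of the same label, and a replicate block on it gave 2760, 2234 and 4792 probes and 778, 540 and 1336 models.

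With the processed signal, the calls of LHCSR2 were lost at -4.31 for npq4 minus cc3491 and -2.01 for 4A+ minus cc3491. With an array left out LHCSR2 lay between -1.59 and -1.35 and between -1.15 and -0.95 in these comparisons, its calls being lost in 10 of 11 cases each, and LHCSR3 between -1.65 and -1.45 for npq4 minus cc3491, its call being lost without the 48 h array of npq4. For npq4 minus 4A+, LHCSR1 lay between -0.08 and 0.49, and turned to -0.08 without the 96 h array of npq4. Runs of neighbours, for which alternatives were chosen after seeing the data, numbered 3 (longest 3), 0 (longest 0) and 15 with the processed signal, and with an array left out 0 to 2 (longest 0 to 4), 0 to 1 (longest 0 to 5) and 7 to 8. Of 135 named differences, which leave out the LHCSR models, 0 reversed under another signal, background fit, offset or scaling or without a filter. Of the 120 available from probes detected on every array 0 reversed, and 17 calls were lost there. Calls lost numbered 16 with the processed signal, 20 with the 75th percentile and 23 with centring. Strain and slide cannot be told apart, each strain rests on pooled cultures, and levels near 6 have no order.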
